A study of Rattus norvegicus with 20 samples.

Results

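Most of the liver's mass is hepatocytes, and the genes described here mark the other cells of the organ: Kupffer cells and other macrophages, endothelial cells, stellate and other mesenchymal cells, cholangiocytes, and lymphocytes and other leukocytes. They are 41 marker genes listed by name from general knowledge of liver cell types, with earlier results of these data already known. Each was read from its probe set with the highest mean. Of the 41 genes, 36 were measured, among 14217 genes in all; Marco, Vsig4, Clec4g, Cdh5 and Sox9 were not analysed here. The 36 comprise 9 of 11 macrophage markers, 7 of 9 endothelial markers, all 10 mesenchymal markers, 4 of 5 cholangiocyte markers and all 6 lymphocyte and leukocyte markers.

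The livers came from male Harlan Sprague-Dawley rats given tricresyl phosphate (TCP), an organophosphate found in hydraulic fluids, engine oils and plastics, by gavage in corn oil once a day for 4 days. The 5 control rats received corn oil alone, and 3 rats each received 62.3, 124.5, 248.6, 497.3 or 994.6 mg/kg, so that corn oil and gavage were common to all 6 groups. Each rat gave 1 array of RNA from whole pieces of the left liver lobe, in which all cell types are mixed; no age is given for the rats in the labels. The comparisons ask whether the RNA of each nonparenchymal cell type differed from control at any dose or changed along the doses.

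Kupffer cells are the resident macrophages of the sinusoids, where they clear particles and dying blood cells from portal blood. Sinusoidal endothelial cells form a perforated, scavenging lining, and stellate cells beneath them store vitamin A and, after injury, turn into matrix-producing myofibroblasts. Cholangiocytes line the bile ducts, and their markers are shared with the ductular and progenitor cells that appear when ducts or hepatocytes are damaged. A marker measured in a whole piece can move because there are more or fewer such cells or because each holds more or less of its RNA, and these cannot be told apart in such data.

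Promoter sequences are shown for the 2 markers that rose at the highest dose, Epcam and Rgs5, and for 2 macrophage genes, C1qa and C1qb. These lie on either side of C1qc and varied together between livers. Each is the 250 bases before the gene's start in the RefSeq rat annotation (build GRCr8), read 5′ to 3′ on the gene's own strand. The stretch for Epcam is chr6:12649679-12649928 on the minus strand, that for Rgs5 chr13:84380827-84381076 on the plus strand, that for C1qa chr5:154419934-154420183 on the minus strand and that for C1qb chr5:154407828-154408077 on the minus strand. Capitals mark matches, on either strand, to the letters GAGGAA (the core bound by PU.1 and other ETS factors, PU.1 being the main macrophage factor), GGGCGG (the GC box), TATAAA (the TATA box) or TGANTCA (the AP-1 motif).
Epcam: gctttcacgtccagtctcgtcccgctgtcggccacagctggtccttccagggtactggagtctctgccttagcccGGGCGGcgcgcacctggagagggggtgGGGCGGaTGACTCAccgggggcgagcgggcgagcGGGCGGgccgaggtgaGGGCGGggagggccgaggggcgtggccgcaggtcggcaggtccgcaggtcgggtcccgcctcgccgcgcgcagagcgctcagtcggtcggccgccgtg
Rgs5: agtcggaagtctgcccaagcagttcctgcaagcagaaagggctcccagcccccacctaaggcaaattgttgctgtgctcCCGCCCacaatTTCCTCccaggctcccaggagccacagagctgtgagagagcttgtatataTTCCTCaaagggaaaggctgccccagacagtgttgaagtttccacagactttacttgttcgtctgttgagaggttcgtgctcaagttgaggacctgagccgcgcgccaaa
C1qa: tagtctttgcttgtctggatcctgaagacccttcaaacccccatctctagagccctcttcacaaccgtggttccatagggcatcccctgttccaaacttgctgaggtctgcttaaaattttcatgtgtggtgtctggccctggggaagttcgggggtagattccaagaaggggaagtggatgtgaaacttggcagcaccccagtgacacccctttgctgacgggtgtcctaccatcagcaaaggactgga
C1qb: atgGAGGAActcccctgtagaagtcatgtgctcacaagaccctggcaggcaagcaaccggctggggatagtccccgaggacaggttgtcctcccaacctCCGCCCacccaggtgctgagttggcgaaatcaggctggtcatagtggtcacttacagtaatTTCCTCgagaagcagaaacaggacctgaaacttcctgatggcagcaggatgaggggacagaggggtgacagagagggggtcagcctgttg
The Epcam stretch held 4 matches to GGGCGG and 1 to TGANTCA, and the Rgs5 stretch held 2 to GAGGAA and 1 to GGGCGG. No match to any of the 4 motifs lay in the C1qa stretch, whereas that of C1qb held 2 to GAGGAA and 1 to GGGCGG. Of the 41 markers, 27 had a promoter in the RefSeq table: 11 of these held GAGGAA, 8 GGGCGG, 5 TATAAA and 3 TGANTCA. Over all 33469 promoters cut to the same length, the shares were 23.3%, 30.5%, 12.9% and 6.34%. A match describes the letters only.

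The arrays of a group correlated at 0.986 to 0.996 over all genes, and replicate 1 of 994.6 mg/kg stood apart, at 37.1 on the principal component with the most variance against -14.1 to 9.14 in the other arrays. For the GAPDH control transcript, the 3′ minus the 5′ signal, a sign of RNA integrity and of amplification, was 1.13 to 1.56 in control arrays and 0.61 to 1.11 in 14 of the 15 treated arrays, with replicate 2 of 124.5 mg/kg at 2.58. As 14 treated arrays lay below all controls in this difference, fits with it as a covariate cannot tell RNA quality from treatment. Albumin (Alb), the hepatocyte's main secreted protein, lay between 15.31 and 15.36 in all 20 arrays on the log2 scale. The highest value of any probe set was 15.36, so Alb lay at the top of the scale. Arrays normalized to nearly equal distributions can hardly differ there, so its constancy does not show a steady share of hepatocytes. Of 11 hepatocyte genes measured, 1 was called in the dose trend, against 6.47% of all genes: the urea cycle enzyme Cps1, which fell by 0.039 ± 0.011 (SE) per dose step (adjusted p = 0.0327). At 994.6 mg/kg 9 of the 11 lay below control, with a median difference of -0.07 against -0.007 for all genes. There 4 of the 11 had an unadjusted limma p under 0.05, against 18.6% of all genes. The mean of the 11 genes was -0.12 to -0.05 in the arrays of that dose, against -0.02 to 0.02 in control.

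Of the 36 markers, 3 were called in at least 1 of 7 tests: Epcam, Rgs5 and Pdgfrb. A gene is called here when limma's Benjamini-Hochberg adjusted p over all 14217 genes is under 0.05, and changes are differences of log2 values with limma's standard error or 95% interval. No marker was called at 62.3, 124.5 or 248.6 mg/kg, where 0%, 0.00703% and 0.0563% of all genes were. Of the 36 markers, 1 was called at 497.3 mg/kg, Epcam, against 0.732% of all genes, and at 994.6 mg/kg 2 were called, Epcam and Rgs5, against 4.47%. With 3 rats a dose, a marker without a call is not shown to be unchanged. All of these calls were rises, which made up 0.513% and 2.50% of all genes at those doses.

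The dose trend, the slope of the log2 value over steps 0 (control) to 5 (994.6 mg/kg), called 3 of 36 markers against 6.47% of all genes. Epcam and Rgs5 rose along the doses, as did 3.90% of all genes, and Pdgfrb fell, as did 2.57%. The moderated F test over all doses called 1 marker, Epcam, against 0.816% of all genes. At an unadjusted p under 0.05 the counts of markers from the lowest to the highest dose were 1, 2, 2, 8 and 4 of 36. The shares of all genes under that limit were 2.45%, 5.04%, 6.65%, 12.2% and 18.6%, so the markers' count lay above the share of all genes at 497.3 mg/kg and below it at 994.6 mg/kg. The median difference of the 36 markers at 994.6 mg/kg was 0.041, and that of all genes was -0.007.

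**Figure D1:**
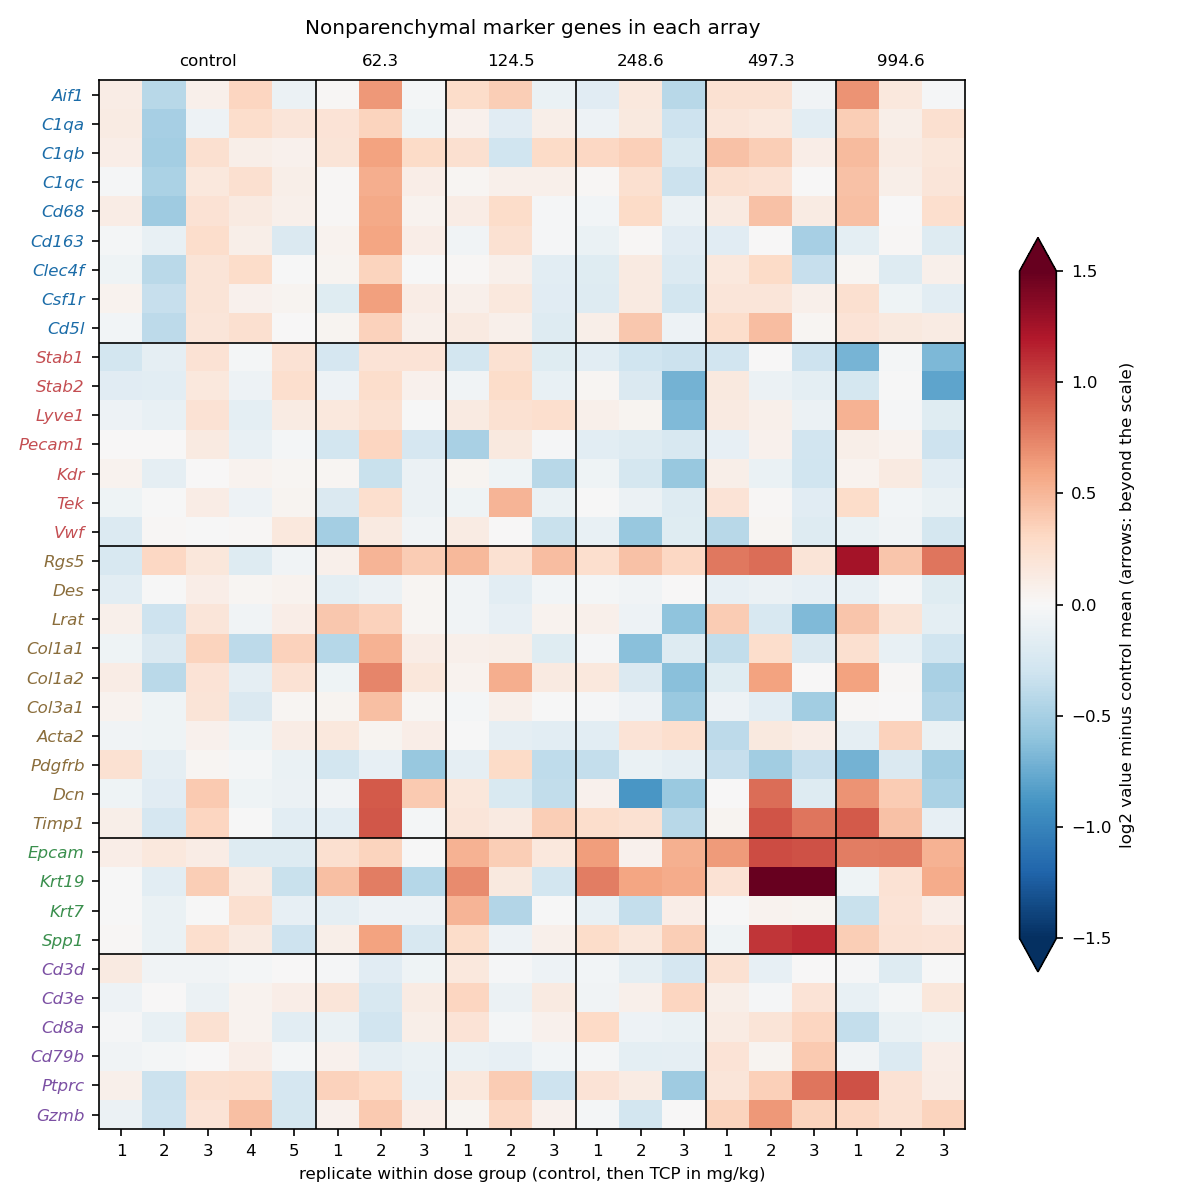
Log2 value of each measured marker (lines, ordered by cell type) in each of the 20 arrays (columns, by dose in mg/kg and replicate), minus that marker's control mean; colours end at 1.5 in either direction and deeper values take the end colour. The Epcam line darkens to the right, Krt19 and Spp1 are high in replicates 2 and 3 of 497.3 mg/kg, and the macrophage block is pale apart from a low control replicate 2 and a high replicate 2 of 62.3 mg/kg.

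Among cholangiocyte markers, Epcam rose at the 2 highest doses, Krt19 and Spp1 were high in 2 of the 3 rats of 497.3 mg/kg without passing the test, and Krt7 stayed near its control level. Epcam encodes an adhesion protein of duct and progenitor epithelium. Its log2 values were 9.29, 9.35 and 9.31 in 3 control rats and 9.0 in both others, and 9.42, 9.52 and 9.18 at 62.3 mg/kg. They were 9.71, 9.55 and 9.35 at 124.5 mg/kg and 9.82, 9.25 and 9.72 at 248.6 mg/kg. The rats of 497.3 mg/kg lay at 9.82, 10.17 and 10.14, and those of 994.6 mg/kg at 9.96, 9.97 and 9.71. All 6 rats of these doses were above all 5 control rats, whereas each lower dose overlapped control.

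The Epcam mean was 9.19 ± 0.17 (SD, n = 5) in control and 10.04 ± 0.19 (SD, n = 3) at 497.3 mg/kg. The difference was 0.86 ± 0.14 (SE), or 1.81-fold, with a 95% interval from 0.57 to 1.14 and limma's adjusted p = 0.00476. At 994.6 mg/kg it was 0.69 ± 0.14 (SE), or 1.62-fold, with an adjusted p of 0.00632. The slope was 0.16 ± 0.024 (SE) per dose step, with an adjusted p of 0.000465, and the F test gave 0.0165. Without control replicates 4 and 5 the difference was 0.73 at 497.3 mg/kg (adjusted p = 0.046) and 0.56 at 994.6 mg/kg (adjusted p = 0.0588), and the F test gave an adjusted p of 0.0916. Over the treated arrays alone the slope was 0.15, with an adjusted p of 0.0876. With the GAPDH difference as a covariate, Epcam was 0.90 higher at 497.3 mg/kg (adjusted p = 0.0109) and 0.74 higher at 994.6 mg/kg (adjusted p = 0.018), and the F test call was lost (adjusted p = 0.055).

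Krt19 encodes a keratin of bile duct epithelium. Its values in the control rats were 6.45, 6.29, 6.83, 6.58 and 6.12, and at 497.3 mg/kg they were 6.67, 8.68 and 7.98, so that replicate 1 lay within the control range and the other rats well above it. At 248.6 mg/kg it was 7.22, 7.05 and 7.01, above all 5 controls in every rat, and the difference of 0.64 ± 0.33 (SE) was not called (adjusted p = 0.786). At 62.3 and 124.5 mg/kg Krt19 lay between 6.03 and 7.22, and at 994.6 mg/kg at 6.39, 6.67 and 7.01, and these doses overlapped control. The difference at 497.3 mg/kg was 1.32 ± 0.33 (SE), with a 95% interval from 0.62 to 2.02 and an adjusted p of 0.0806. It was called in 1 of 28 other settings, the one without replicate 1 of that dose, where it was 1.87 (adjusted p = 0.00494). Without replicate 2 it was 0.87 (adjusted p = 0.342), and without replicate 3 it was 1.22 (adjusted p = 0.198). The difference was 0.24 ± 0.33 (SE, adjusted p = 0.782) at the highest dose.

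Spp1, which encodes osteopontin, a secreted matrix protein of duct cells and activated macrophages, had the same shape. It lay at 6.54, 6.42, 6.77, 6.66 and 6.21 in control and at 6.46, 7.59 and 7.64 at 497.3 mg/kg, with replicate 1 again in the control range. Rats of the highest dose had 6.89, 6.74 and 6.72, and at the lower doses 6.27 to 7.12. The difference at 497.3 mg/kg was 0.71 ± 0.22 (SE, adjusted p = 0.153). It was called in 1 of 28 other settings, that without replicate 1, at 1.10 (adjusted p = 0.00495), and was 0.53 without replicate 2 (adjusted p = 0.453) and 0.51 without replicate 3 (adjusted p = 0.396). Krt7, another duct keratin, differed by 0.03 ± 0.16 (SE) at 497.3 mg/kg and by -0.01 ± 0.16 (SE) at 994.6 mg/kg. Its 95% interval at the highest dose ran from -0.34 to 0.32. The Krt7 probe set was dim, with a mean of 5.32 against array medians of 6.31 to 6.41, and values of dim probe sets understate changes.

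The mean of the 4 cholangiocyte markers, each taken from its own control mean, was 0.20 in replicate 1 of 497.3 mg/kg and 1.08 and 0.91 in replicates 2 and 3, against -0.24 to 0.19 in control and 0.19 to 0.35 at 994.6 mg/kg. The 2 rats of 497.3 mg/kg with high Krt19 and Spp1 were also those with high Tspan8, a tetraspanin of epithelia, at 7.61 and 6.57 against 5.79 in replicate 1. The same held for Cd24, a surface protein of progenitor cells, at 6.87 and 6.10 against 5.46. Both were picked out after their values were seen, and neither was called (limma's adjusted p = 0.295 for Tspan8 and 0.341 for Cd24 at 497.3 mg/kg). They belong to 13 other cholangiocyte genes whose mean was -0.20, 0.31 and 0.06 in replicates 1, 2 and 3 of 497.3 mg/kg. In control that mean was -0.10 to 0.13, so replicate 3 lay within the control range.

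Of 13 other cholangiocyte genes measured, 2 were called in the dose trend, both higher, against 3.90% of all genes, and 1 of them at each of the 2 highest doses, against 0.513% and 2.50%. Both encode keratins that hepatocytes also make. Krt18 rose by 0.70 ± 0.10 (SE) at 497.3 mg/kg (adjusted p = 0.00324) and by 0.77 ± 0.10 (SE) at 994.6 mg/kg (adjusted p = 0.00033). Krt8 rose by 0.077 ± 0.023 (SE) per dose step (adjusted p = 0.048). At 497.3 mg/kg, 8 of the 13 genes lay above control and 5 below, with a median of 0.14 and the lowest difference, of -2.31 (adjusted p = 0.106), in the hepatocyte and duct transcription factor gene Onecut1. The median of these 13 genes at 994.6 mg/kg was 0.009, against 0.25 for the 4 markers and -0.007 for all genes.

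**Figure D2:**
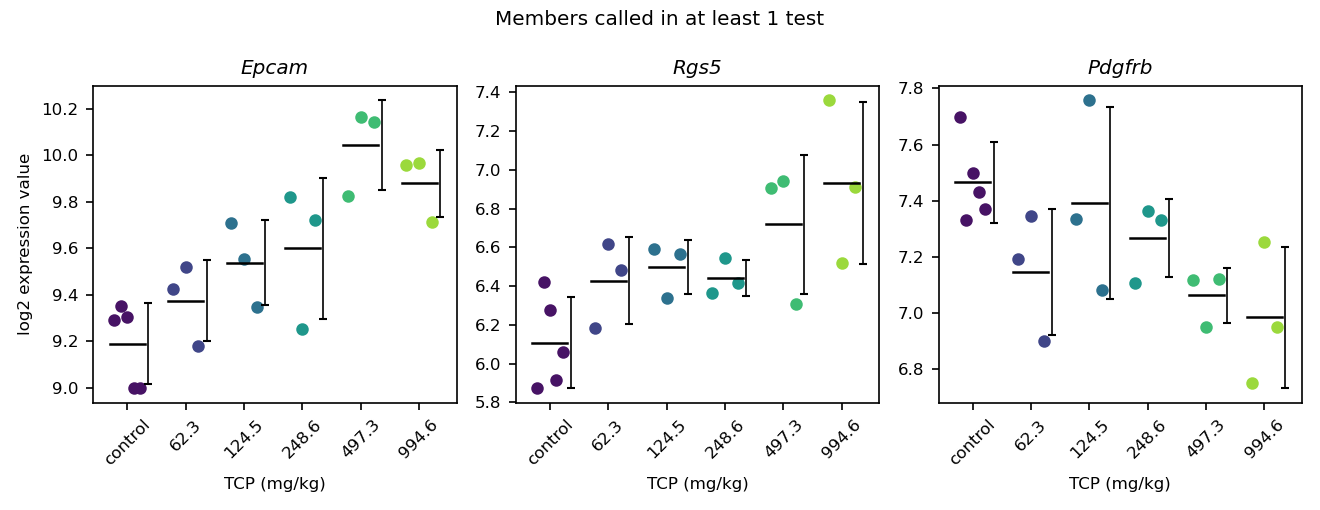
Log2 value of Epcam, Rgs5 and Pdgfrb in each array (points) by dose of TCP, with the group mean (line) and SD (bar); each panel has its own scale. Epcam lies above all control arrays in the 6 arrays of 497.3 and 994.6 mg/kg, Rgs5 in the 3 arrays of 994.6 mg/kg, and Pdgfrb below all control arrays in the 6 arrays of those doses.

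Of the mesenchymal markers, the pericyte gene Rgs5 rose at the highest dose, and the collagens, desmin and smooth muscle actin were not called in any of the 7 tests. The probe set read for the growth factor receptor Pdgfrb fell along the doses by a small amount. That call held in 9 of 29 other settings, and the gene's other probe sets showed little slope. Rgs5 encodes a regulator of G protein signalling found in pericytes and vascular smooth muscle. In control it lay at 5.87, 6.42, 6.28, 5.91 and 6.06, and at 62.3 mg/kg at 6.18, 6.62 and 6.48. It was 6.59, 6.34 and 6.57 at 124.5 mg/kg and 6.37, 6.55 and 6.42 at 248.6 mg/kg. The values were 6.90, 6.94 and 6.31 at 497.3 mg/kg and 7.36, 6.52 and 6.91 at 994.6 mg/kg. Only the highest dose was clear of the control range in all 3 rats, and replicate 1 of that dose was the highest of the 20 arrays.

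Rgs5 was 0.82 ± 0.17 (SE) higher at 994.6 mg/kg, or 1.77-fold, with a 95% interval from 0.46 to 1.19 and an adjusted p of 0.0109. The difference of 0.61 ± 0.17 (SE) at 497.3 mg/kg was not called (adjusted p = 0.126). The slope was 0.14 ± 0.029 (SE) per dose step, with an adjusted p of 0.00413. Without replicate 1 of 994.6 mg/kg, the array that stood apart, the difference was 0.61 with an adjusted p of 0.114, and the slope was 0.12 with an adjusted p of 0.0157. Without control replicates 4 and 5 the difference was 0.74 (adjusted p = 0.0725). With the GAPDH difference as a covariate the difference was 0.76 (adjusted p = 0.052), and over treated arrays alone the slope was 0.12 (adjusted p = 0.267).

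Pdgfrb encodes a receptor for platelet-derived growth factor, through which stellate cells and pericytes are driven to divide. It lay at 7.70, 7.33, 7.50, 7.43 and 7.37 in control and at 7.19, 7.35 and 6.90 at 62.3 mg/kg. It was 7.34, 7.76 and 7.08 at 124.5 mg/kg and 7.11, 7.36 and 7.33 at 248.6 mg/kg. The 2 highest doses gave 7.12, 6.95 and 7.12, and 6.75, 7.25 and 6.95. All 6 rats of the 2 highest doses lay below all controls, and the doses in between overlapped control.

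The slope of Pdgfrb was -0.083 ± 0.025 (SE) per dose step (adjusted p = 0.0477), and the difference at 994.6 mg/kg was -0.48 ± 0.14 (SE, adjusted p = 0.0577). The trend call held in 9 of 29 other settings, and the difference at 994.6 mg/kg was called in 4 of 28. The trend call was lost with the GAPDH difference as a covariate (slope -0.040, adjusted p = 0.306) and without any 1 of the 5 control arrays. The other probe sets of the gene differed by -0.095 and -0.053 at 994.6 mg/kg and had slopes of -0.0056 and 0.0030 per dose step, so the gene's probe sets disagree.

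Col3a1, a fibrillar collagen of vessel walls and scars, had the smallest F test p of the other mesenchymal markers. It lay at 11.64, 11.52, 11.78, 11.37 and 11.62 in control, at 11.63, 12.03 and 11.62 at 62.3 mg/kg, at 11.56, 11.66 and 11.59 at 124.5 mg/kg and at 11.57, 11.51 and 11.03 at 248.6 mg/kg. Col3a1 was 11.51, 11.43 and 11.07 at 497.3 mg/kg, and at 994.6 mg/kg 11.60, 11.59 and 11.15, with 1 rat of each of the 3 highest doses below the control range. The difference at 994.6 mg/kg was -0.14 ± 0.14 (SE, adjusted p = 0.672).

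The chains of type I collagen, Col1a1 and Col1a2, differed by -0.06 ± 0.21 (SE) and 0.04 ± 0.24 (SE) at the highest dose. A second, somewhat dimmer probe set of each differed by -0.28 for Col1a1 and -0.20 for Col1a2, so those of Col1a2 differ in sign. Des and Acta2, the filament proteins of stellate cells and myofibroblasts, differed by -0.11 ± 0.07 (SE) and 0.04 ± 0.13 (SE). With array weights, which give less weight to arrays that depart from their group, Acta2 was 0.28 higher (adjusted p = 0.0492), the only call it gained in 28 other settings at that dose. Lrat, the enzyme that esterifies vitamin A for storage, differed by 0.16 ± 0.19 (SE), and Dcn, a small matrix proteoglycan, by 0.19 ± 0.28 (SE). Timp1, a metalloproteinase inhibitor induced in liver injury, was 0.41 ± 0.26 (SE, adjusted p = 0.429) higher at 994.6 mg/kg and 0.60 ± 0.26 (SE, adjusted p = 0.346) higher at 497.3 mg/kg. Dcn and Timp1 spread widely between rats of a dose, from 5.77 to 6.91 and from 7.40 to 8.45 at 994.6 mg/kg.

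Of 22 other mesenchymal and matrix genes measured, none was called at 994.6 mg/kg by limma, 3 were under an unadjusted p of 0.05 there, against 18.6% of all genes, and 3 were called in the dose trend, all lower, against 2.57%. Lox, the enzyme that cross-links collagen, fell by 0.31 ± 0.081 (SE) per dose step (adjusted p = 0.0253). Bgn, the proteoglycan biglycan, fell by 0.071 ± 0.020 (SE, adjusted p = 0.0327), and Reln, the stellate cell glycoprotein reelin, by 0.080 ± 0.024 (SE, adjusted p = 0.0456). The median of the 22 genes at 994.6 mg/kg was -0.09, against 0.04 for the 10 markers.

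No endothelial marker was called in any of the 7 tests, which called at most 6.47% of all genes. Among these markers, the scavenger receptor genes Stab1 and Stab2 had the lowest differences from control at the highest dose. Stab1 and Stab2 encode stabilins, with which sinusoidal endothelium takes up hyaluronan and other waste from blood. Stab1 lay at 7.61, 7.74, 8.09, 7.85 and 8.10 in control, at 7.63, 8.08 and 8.08 at 62.3 mg/kg, at 7.60, 8.10 and 7.69 at 124.5 mg/kg and at 7.71, 7.58 and 7.56 at 248.6 mg/kg. It was 7.59, 7.89 and 7.57 at 497.3 mg/kg and 7.18, 7.85 and 7.21 at 994.6 mg/kg. Replicates 1 and 3 of the highest dose were the lowest of all arrays, and replicate 2 lay within the control range.

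The slope of Stab1 was -0.087 ± 0.027 (SE) per dose step, just outside the limit (adjusted p = 0.051) and inside it in 10 of 30 other settings. Its difference at 994.6 mg/kg was -0.46 ± 0.16 (SE, adjusted p = 0.113), and with the GAPDH difference as a covariate it was -0.29 (adjusted p = 0.361). Stab2 lay at 9.76, 9.77, 10.09, 9.85 and 10.18 in control and at 9.66, 9.92 and 9.13 at 994.6 mg/kg. It was 9.85, 10.19 and 9.99 at 62.3 mg/kg, 9.88, 10.21 and 9.82 at 124.5 mg/kg, 9.95, 9.72 and 9.22 at 248.6 mg/kg and 10.08, 9.84 and 9.78 at 497.3 mg/kg. Replicate 3 was the lowest rat in each of the 3 highest doses, and the groups overlapped. The Stab2 difference at 994.6 mg/kg was -0.36 ± 0.17 (SE, adjusted p = 0.274).

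Kdr encodes the main receptor for vascular endothelial growth factor. It lay at 10.17, 9.98, 10.12, 10.16 and 10.14 in control, at 10.14, 9.78 and 10.03 at 62.3 mg/kg, at 10.15, 10.05 and 9.71 at 124.5 mg/kg and at 10.05, 9.85 and 9.55 at 248.6 mg/kg. Kdr was 10.21, 10.02 and 9.81 at 497.3 mg/kg, and at 994.6 mg/kg 10.17, 10.25 and 9.96. The 95% interval of its difference at 994.6 mg/kg ran from -0.25 to 0.27. Lyve1, a hyaluronan receptor, Pecam1, a junction protein, Tek, the angiopoietin receptor, and Vwf, the clotting protein of larger vessels, differed by 0.11, -0.06, 0.04 and -0.13 at that dose, each with an adjusted p of 0.697 or more.

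All 7 endothelial markers had intervals within a 2-fold change at 994.6 mg/kg, and 5 of them within 1.5-fold. Of all 14217 genes, 13752 and 12107 had such intervals, so these counts do not set the endothelial markers apart as steady. Their median difference was -0.06, as was that of 21 other endothelial genes. At 248.6 mg/kg all 7 markers were below control, with a median of -0.26, as were 18 of the 21 other endothelial genes, with a median of -0.12, against a median of 0.010 over all genes. This was not particular to endothelial genes. At that dose 7 of 10 mesenchymal markers (median -0.20) and 20 of 22 other mesenchymal and matrix genes (median -0.18) were below control. So were 9 of 10 neutrophil and mast cell genes (median -0.13), whereas 3 of 4 cholangiocyte markers were above. The endothelial markers' medians were -0.02, -0.07 and -0.10 at 62.3, 124.5 and 497.3 mg/kg. Pecam1 at 248.6 mg/kg, at 8.01, 7.98 and 7.92, lay below all 5 controls (difference -0.20 ± 0.14, SE, adjusted p = 0.86). Of the 21 other genes, 1 was called in the dose trend, against 6.47% of all genes: Icam1, a leukocyte adhesion molecule made by endothelium and by other inflamed cells, rose by 0.13 ± 0.037 (SE) per dose step (adjusted p = 0.0445). The endothelial mean was lowest in replicate 3 of 248.6 mg/kg, at -0.41, and in replicate 3 of 994.6 mg/kg, at -0.35, against -0.10 to 0.12 in control.

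**Figure D3:**
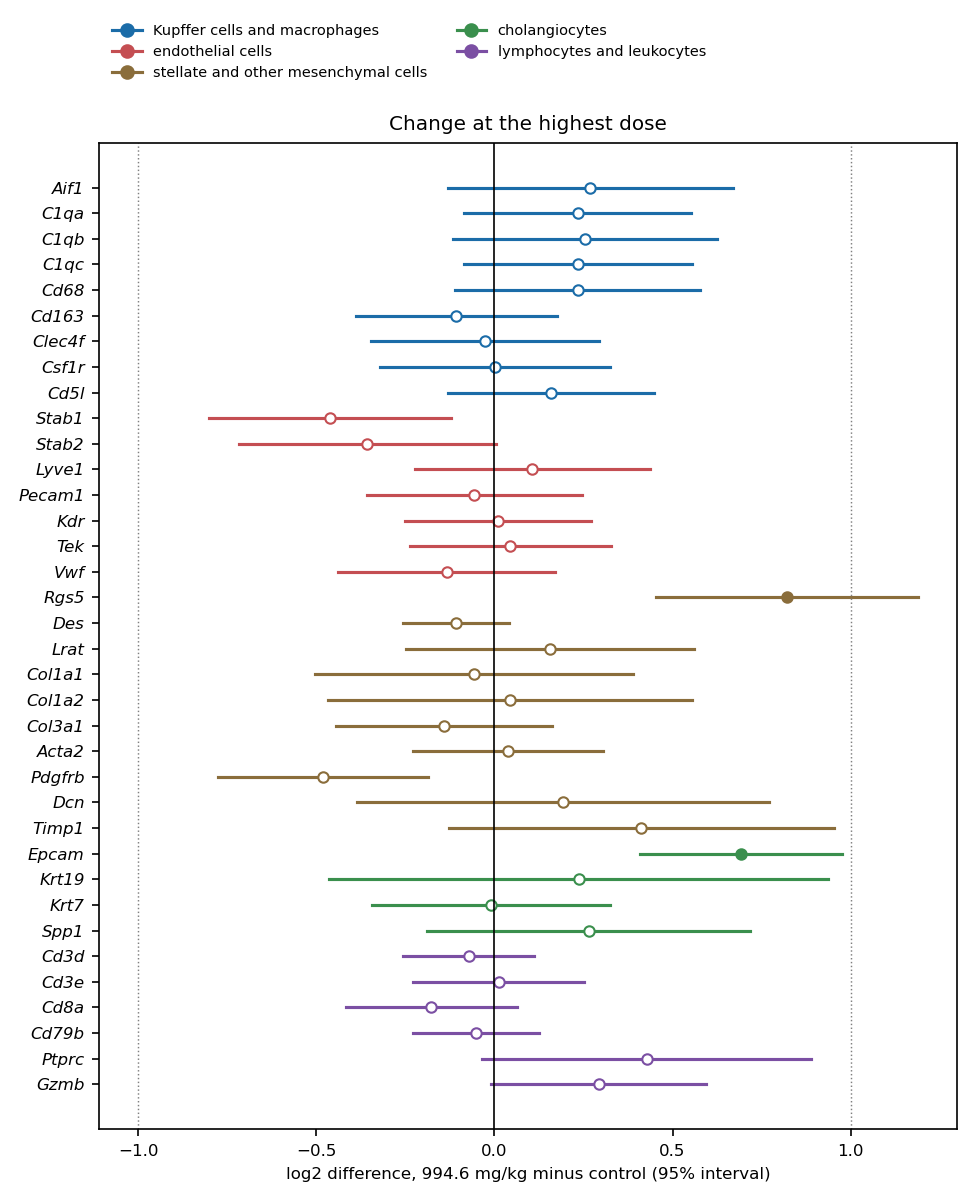
Log2 difference of each marker between 994.6 mg/kg and control (point) with its 95% interval (line), coloured by cell type; filled points are called, and dotted lines mark 2-fold changes. Rgs5 and Epcam are the only filled points, and 35 of the 36 intervals lie between the dotted lines, Rgs5 being the exception. Over all genes, 13752 of 14217 intervals lay within a 2-fold change.

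Macrophage markers were not called at any dose or in the trend. At the 2 highest doses and in the trend, 0.732%, 4.47% and 6.47% of all genes were called. None of the 9 had an unadjusted limma p under 0.05 at the 2 highest doses, against 12.2% and 18.6% of all genes. Among only 9 genes, counts of 0 lie near these shares and do not show that the markers were steady. At 994.6 mg/kg their differences ran from -0.11 (Cd163) to 0.27 (Aif1), with a median of 0.23. The median was 0.10 without control replicate 2, in which 8 of the 9 genes had their lowest value of all 20 arrays, and 0.13 without replicate 1 of 994.6 mg/kg, which had the highest value of its dose in 7 of 9. All 9 intervals lay within a 2-fold change and 7 within 1.5-fold, against 13752 and 12107 of all 14217 genes.

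Cd163 encodes the haemoglobin scavenger receptor of resident macrophages. It lay at 8.28, 8.19, 8.57, 8.40 and 8.09 in control, at 8.36, 8.90 and 8.40 at 62.3 mg/kg, at 8.26, 8.54 and 8.29 at 124.5 mg/kg and at 8.21, 8.33 and 8.13 at 248.6 mg/kg. It was 8.14, 8.31 and 7.81 at 497.3 mg/kg and 8.16, 8.32 and 8.11 at 994.6 mg/kg. Its slope of -0.050 ± 0.024 (SE) was the lowest of the macrophage markers (adjusted p = 0.247), and every dose overlapped control.

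C1qb encodes a chain of C1q, the complement component that macrophages secrete. It lay at 10.07, 9.46, 10.21, 10.05 and 10.03 in control, at 10.15, 10.57 and 10.25 at 62.3 mg/kg, at 10.20, 9.66 and 10.26 at 124.5 mg/kg and at 10.28, 10.32 and 9.74 at 248.6 mg/kg. Rats of 497.3 mg/kg had 10.41, 10.33 and 10.06, and those of 994.6 mg/kg 10.44, 10.09 and 10.14. Control replicate 2 lay below all the other arrays. The difference at 994.6 mg/kg was 0.25 ± 0.18 (SE, adjusted p = 0.485).

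Aif1 encodes an actin-binding protein of activated macrophages. Its values were 8.55, 8.02, 8.52, 8.77 and 8.36 in control, 8.46, 9.10 and 8.42 at 62.3 mg/kg, 8.72, 8.81 and 8.34 at 124.5 mg/kg and 8.27, 8.60 and 8.03 at 248.6 mg/kg. The rats of 497.3 mg/kg had 8.68, 8.68 and 8.40, and at 994.6 mg/kg 9.12, 8.60 and 8.43. The highest values were those of replicate 1 of 994.6 mg/kg and replicate 2 of 62.3 mg/kg. The difference at 994.6 mg/kg was 0.27, and 0.07 without the former array. A dimmer probe set of Aif1 differed by -0.12 at that dose, so the gene's probe sets differ in sign.

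Clec4f, the lectin that sets Kupffer cells apart from incoming monocytes, differed by -0.03 ± 0.15 (SE) at 994.6 mg/kg, and Csf1r, the receptor on which macrophage survival depends, by 0.00 ± 0.15 (SE). Their 95% intervals were -0.35 to 0.29 and -0.32 to 0.32. Cd68, a lysosomal protein, differed by 0.23 ± 0.17 (SE) and Cd5l, a secreted scavenger protein, by 0.16 ± 0.14 (SE). Of 18 other macrophage and monocyte genes measured, none was called by limma at 994.6 mg/kg or in the trend, against 4.47% and 6.47% of all genes. Of the 18, 3 had an unadjusted p under 0.05 at that dose, against 18.6% of all genes. Their median difference was 0.04.

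No lymphocyte or leukocyte marker was called. Gzmb encodes granzyme B, a protease of cytotoxic cells. It lay at 5.02, 4.79, 5.30, 5.55 and 4.84 in control, at 5.17, 5.49 and 5.20 at 62.3 mg/kg, at 5.14, 5.41 and 5.17 at 124.5 mg/kg and at 5.08, 4.83 and 5.11 at 248.6 mg/kg. At 497.3 mg/kg it was 5.44, 5.75 and 5.44, and at 994.6 mg/kg 5.41, 5.33 and 5.44. All 6 rats of the 2 highest doses lay above 4 of the 5 controls. The differences were 0.44 ± 0.14 (SE, adjusted p = 0.188) and 0.29 ± 0.14 (SE, adjusted p = 0.289).

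Cd79b encodes a subunit of the B cell receptor. It was 5.45, 5.47, 5.51, 5.60 and 5.47 in control, 5.56, 5.37 and 5.40 at 62.3 mg/kg, 5.39, 5.38 and 5.46 at 124.5 mg/kg and 5.47, 5.35 and 5.36 at 248.6 mg/kg. At 497.3 mg/kg it was 5.70, 5.54 and 5.89, and at 994.6 mg/kg it was back at 5.45, 5.30 and 5.60. The difference at 497.3 mg/kg was 0.21 ± 0.085 (SE, adjusted p = 0.302), and at 994.6 mg/kg it was -0.05 ± 0.085 (SE, adjusted p = 0.815).

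Cd8a encodes a chain of the co-receptor of cytotoxic T cells. Its values were 6.21, 6.11, 6.45, 6.28 and 6.06 in control, 6.13, 5.94 and 6.30 at 62.3 mg/kg, 6.43, 6.19 and 6.29 at 124.5 mg/kg and 6.52, 6.15 and 6.12 at 248.6 mg/kg. They were 6.34, 6.42 and 6.54 at 497.3 mg/kg and 5.86, 6.12 and 6.15 at 994.6 mg/kg, where the difference was -0.18 ± 0.12 (SE, adjusted p = 0.447). The other probe sets of Cd8a differed by -0.45 and -0.04. Cd3d and Cd3e, subunits of the T cell receptor complex, differed by -0.07 ± 0.09 (SE) and 0.01 ± 0.11 (SE) at that dose. Ptprc, the CD45 phosphatase of all leukocytes, was 0.43 ± 0.22 (SE, adjusted p = 0.313) higher, and 0.17 higher without replicate 1 of 994.6 mg/kg, where it reached 8.25. A second, dimmer probe set of Ptprc differed by 0.09 at that dose.

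All 6 lymphocyte and leukocyte differences were above 0 at 497.3 mg/kg, with a median of 0.21, and 3 of 6 were at 994.6 mg/kg, with a median of -0.02. Of 20 other lymphocyte genes measured, none was called by limma at either dose or in the trend, against 0.732%, 4.47% and 6.47% of all genes. Of the 20, 1 and 0 had an unadjusted p under 0.05 at the 2 doses, against 12.2% and 18.6% of all genes. Their medians were -0.02 and -0.10, against 0.007 and -0.007 for all genes. All 10 neutrophil and mast cell genes measured also went without a call at both doses, with 1 of 10 under an unadjusted p of 0.05 at each.

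Counted without a model, no marker had all 3 arrays of 62.3 or 124.5 mg/kg beyond all 5 control arrays, against 2.76% and 3.50% of all genes. At 248.6 mg/kg there were 2 of 36, Krt19 above and Pecam1 below, against 7.32%. Likewise, 2 of 36 markers had all 3 arrays of 497.3 mg/kg beyond all 5 control arrays, Epcam above and Pdgfrb below, against 10.0% of all genes. At 994.6 mg/kg there were 3 of 36, Epcam and Rgs5 above and Pdgfrb below, against 14.0%. The markers' counts were thus not above the share found over all genes.

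**Figure D4:**
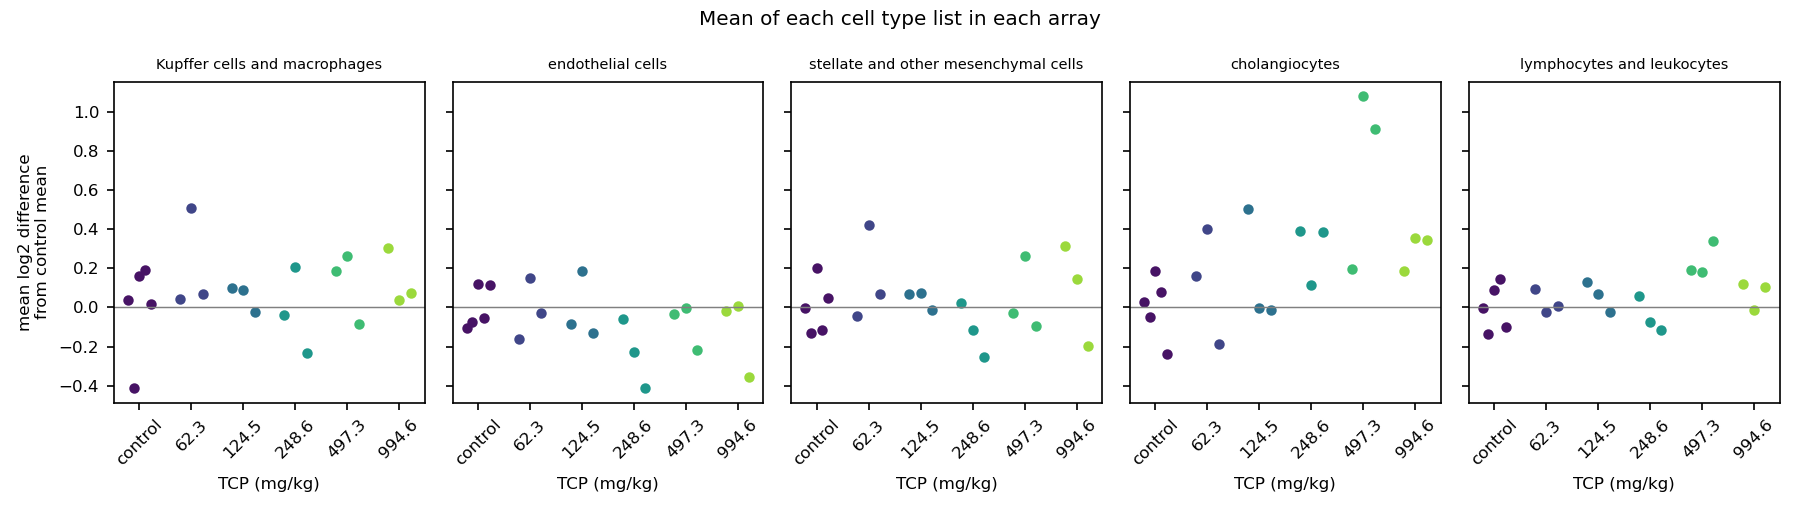
Mean over the measured markers of each cell type in each array (points), as the log2 difference from each marker's control mean, by dose of TCP. The cholangiocyte mean reaches 1.08 and 0.91 in 2 arrays of 497.3 mg/kg; the macrophage mean is lowest in control replicate 2, at -0.41, and highest in replicate 2 of 62.3 mg/kg, at 0.51.

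Rats of one dose differed from each other in blocks of markers, and these shifts were not confined to 1 cell type. The mean of all 36 markers was -0.18 in control replicate 2, -0.01 to 0.15 in the other controls and 0.315 in replicate 2 of 62.3 mg/kg. The 3′ minus 5′ difference of the actin control transcript was 2.90 in control replicate 2 and 2.29 to 2.61 in the other controls. Its part in the shift was not tested. The macrophage mean was -0.41 in control replicate 2 and 0.02 to 0.19 in the other controls. In replicate 2 of 62.3 mg/kg it was 0.51, with 6 of 9 macrophage genes at their highest of all 20 arrays, and the mesenchymal mean of that rat was also the highest of the series, at 0.42. The macrophage median difference at 62.3 mg/kg was 0.21 with that array and 0.06 without it. For mesenchymal markers the median difference at that dose was 0.21 with that array and 0.05 without it, and for cholangiocyte markers it was 0.17 and -0.04.

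Within dose groups, markers made by the same cells varied together to different degrees. In 13 pairs chosen after values were seen, each value was taken from its group mean over the 20 arrays. The p-values came from 100000 permutations within groups, with Benjamini-Hochberg adjustment over the 13 pairs. Neither the p-values nor the adjustment allow for the choice of pairs from these same values, so they describe these pairs only. The C1q genes lie next to each other on chromosome 5 in the order C1qb, C1qc, C1qa. C1qa and C1qb had Pearson's r = 0.805 (permutation p = 0.00113, adjusted p = 0.0049) and Spearman's rho = 0.629 (permutation p = 0.0101, adjusted p = 0.0187). C1qa and C1qc had r = 0.828 (permutation p = 0.00075, adjusted p = 0.0049) and rho = 0.82 (permutation p = 0.00066, adjusted p = 0.0052). C1qb and C1qc had r = 0.827 (permutation p = 0.00087, adjusted p = 0.0049) and rho = 0.788 (permutation p = 0.0008, adjusted p = 0.0052). Without the 2 arrays farthest from the median of the gene named first, control replicate 2 among them in each case, r was 0.661, 0.684 and 0.858.

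Col1a1 and Col1a2, whose products form 1 collagen molecule, had r = 0.756 (permutation p = 0.00165, adjusted p = 0.00536) and rho = 0.726 (permutation p = 0.00304, adjusted p = 0.0132), with r = 0.706 without the 2 farthest arrays. Col1a2 and Col3a1 had r = 0.713 (permutation p = 0.0108, adjusted p = 0.02) and rho = 0.714 (permutation p = 0.00767, adjusted p = 0.0187), with r = 0.717. Col1a1 and Col3a1 had r = 0.472 (permutation p = 0.0936, adjusted p = 0.122) and rho = 0.471 (permutation p = 0.0966, adjusted p = 0.114), with r = 0.362, and did not pass. Krt19 and Spp1 had r = 0.838 (permutation p = 0.00411, adjusted p = 0.0107) and rho = 0.726 (permutation p = 0.00697, adjusted p = 0.0187), with r = 0.71 without replicates 1 and 2 of 497.3 mg/kg. Epcam varied with Spp1 at r = 0.585 (permutation p = 0.00683, adjusted p = 0.0148) and rho = 0.638 (permutation p = 0.00897, adjusted p = 0.0187), with r = 0.534 without the 2 farthest arrays. Epcam and Krt19 had r = 0.539 (permutation p = 0.0186, adjusted p = 0.0302) and rho = 0.579 (permutation p = 0.0179, adjusted p = 0.0292), with r = 0.507. The 3 pairs with Krt7 had r between 0.198 and 0.296 and did not pass the adjustment, nor did Cd3d with Cd3e (r = 0.184, permutation p = 0.486, adjusted p = 0.486). The probe sets of Krt7, Cd3d and Cd3e had means of 5.32, 4.84 and 6.07, below the array medians, so a low r there says little about the cells. The arrays share their RNA quality and normalization, and the part of these in the correlations was not tested.

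**Figure D5:**
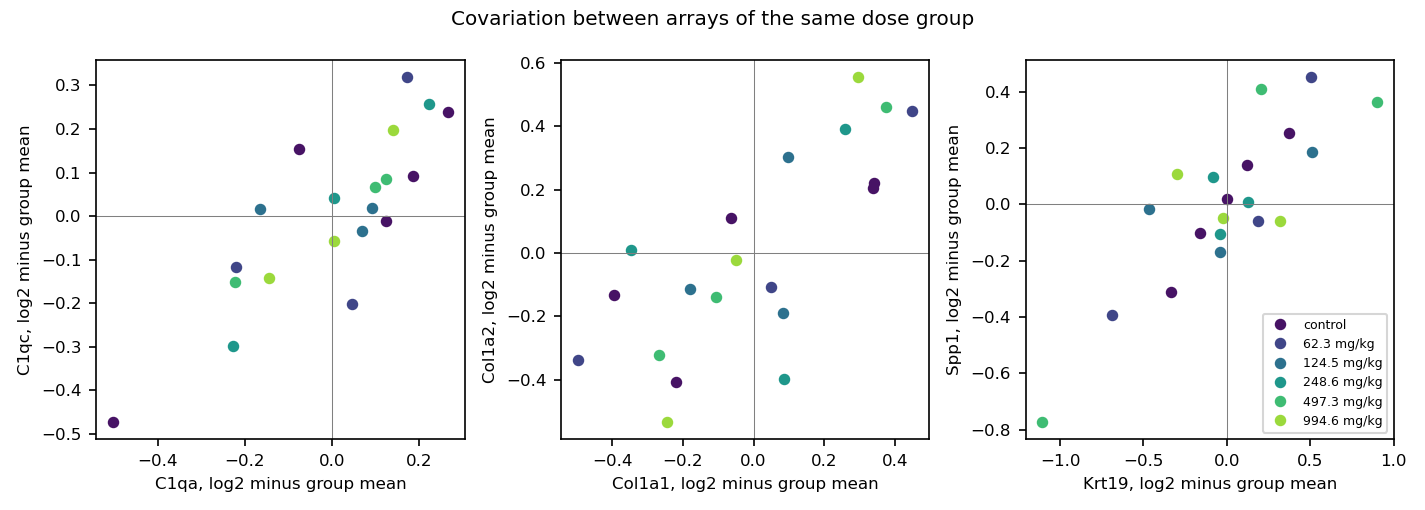
Log2 value minus the mean of its dose group in each of the 20 arrays (points, coloured by dose), for C1qa against C1qc, Col1a1 against Col1a2 and Krt19 against Spp1; axes are in log2 units. Points run from lower left to upper right in all 3 panels, with control replicate 2 at the lower left of the C1q panel and replicate 1 of 497.3 mg/kg at the lower left of the keratin and osteopontin panel.

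A liver piece also holds blood. Of 8 platelet and erythroid genes measured, 3 were called lower at 994.6 mg/kg, against 1.96% of all genes, and in the trend, against 2.57%, all of them erythroid: Alas2, Hbb and Ahsp. Alas2, the enzyme that starts heme synthesis in red cell precursors, fell by 1.63 ± 0.23 (SE) at 994.6 mg/kg (adjusted p = 0.000385).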

How the data were processed

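The authors deposited log2 values of Affymetrix probe sets, summarized by RMA per the submitters' processing notes. It is not known here which arrays were normalized jointly. RMA gives arrays nearly equal distributions (medians 6.31 to 6.41), so changes are relative to the bulk of genes, and the number of arrays limits the precision. Signal over background was not measured, and RMA values of dim probe sets understate changes.

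Of 31042 probe sets that are not controls, 20826 had 1 gene symbol, 436 had more and 9780 had none here; symbols were brought up to date by gene identifier (20758) or accession (2) or kept (66). A gene was read from its probe set with the highest mean, with no filter.

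All 20 arrays entered a limma 3.58.1 model in R 4.3.3 with a mean for each group (14 residual and 4.77 prior degrees of freedom), which was first tested on simulated data. The labels assign separate rats to each array. Values of every array are given for markers called in a test and, in cell types with fewer than 3 such, for those with the smallest F test p, 15 in all; of other lists, up to 4 called genes are named. The markers, the other lists and the tests were chosen with earlier results of these data known. Alternatives changed the probe set rule, filter, normalization, eBayes options, array weights, replicate block, RNA quality covariate, arrays, dose scale and left-out array; medians of cell types without 4 single arrays, and the arrays numbered 1 to 3 with no block, were added after seeing the data.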

Additional observations from a re-analysis of the deposited data

Results flagged for a closer look

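Among the 5 control rats, 36 markers and 5 cell type means were checked for 1 rat standing far from the rest, and 5 were found; chance alone gives some of these. Control replicate 2 was low in C1qb at 9.46, against 10.03 to 10.21 in the other controls, and in Cd68 at 8.91, against 9.53 to 9.66. It was also low in Kdr at 9.98, against 10.12 to 10.17, and in the mean of the macrophage markers at -0.41, against 0.02 to 0.19. Control replicate 3 was high in Dcn at 6.63, against 6.06 to 6.18. The 3 macrophage results share an array and are not independent of each other.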

How the results depend on the processing

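Over 29 alternatives at each dose, 30 for the trend and 28 for the F test, no called marker changed sign, and no marker was called at 62.3, 124.5 or 248.6 mg/kg. At 497.3 mg/kg the count of 1 became 2 with array weights (Rgs5 added) and 0 with the replicate block, and ran from 1 to 3 with an array left out. It was 3 without replicate 1 of 497.3 mg/kg, with Krt19 and Spp1 added. At 994.6 mg/kg the count of 2 became 1 without the lowest 50% of genes, a filter that removes Rgs5, 1 with the GAPDH covariate and 0 with the replicate block; it was 3 with quantile normalization (Pdgfrb added) and 3 with array weights (Acta2 added). The replicate block leaves out control replicates 4 and 5, which have no partner; the same arrays with no block gave 1 call at 497.3 mg/kg, 0 at 994.6 mg/kg and 0 in the F test. With an array left out the count at 994.6 mg/kg ran from 1 to 4: 1 without replicate 1 of 994.6 mg/kg and 4 without replicate 2, with Stab1 and Pdgfrb added. The trend count of 3 became 0 over treated arrays alone, and the F test count of 1 became 0 with the replicate block and with the GAPDH covariate and ran from 0 to 3 with an array left out, 0 without replicate 2 or replicate 3 of 497.3 mg/kg and 3 without replicate 1. Beyond the fewer arrays or genes that some settings hold, the cause was not tested.

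With the replicate block, Epcam had an adjusted p of 0.0647 at 497.3 mg/kg and 0.0646 at 994.6 mg/kg, and its adjusted p over 29 alternatives ran from 0.00182 to 0.0647 and from 8.42e-05 to 0.0646; with the same arrays and no block it was 0.046 and 0.0588, and no other setting ended these calls. For Rgs5 at 994.6 mg/kg the block gave 0.0915, the same arrays with no block 0.0725, and the range over 28 alternatives was 0.00356 to 0.114. The labels do not say that replicate numbers pair the rats, and the data give no clear pairing: same-numbered arrays correlated at -0.38 to 0.37 in their deviations from group means, all same-number values exceeded 0.1 in 1 of 15 pairs of groups, and 19 of 45 arrays correlated best with their own number, against 15 if numbers were random. Between treated groups alone it was 17 of 30, against 10; what same-numbered treated rats share was not tested. Over all genes, the calls at 994.6 mg/kg were 635, against 310 with the replicate block, 250 with the same arrays and no block, 173 without replicate 1, 1000 with quantile normalization and 2841 with array weights; at 497.3 mg/kg they were 104, against 281 with array weights, 235 with only control and that dose fitted and 38 with the replicate block and also with the same arrays unblocked; over treated arrays alone the trend called 31 against 920, and the F test called 116, against 67 with the replicate block or with the GAPDH covariate, 48 with the arrays of the block unblocked, 192 with quantile normalization and 1247 with array weights. Medians of a cell type that changed sign without control replicate 2 were those of macrophage markers at 124.5 mg/kg, from 0.06 to -0.05, and mesenchymal markers at 994.6 mg/kg, from 0.04 to -0.02. The latter was -0.08 without replicate 1 of that dose. Probe sets near the floor of the values, such as Cd3d, limit what small changes can show.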

Other observations

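Some markers spread far more between rats of a dose than others of the same cell type. Dcn ranged from 5.36 to 6.30 at 248.6 mg/kg and Des, a filament protein of the same cells, from 6.60 to 6.66. Lrat, the vitamin A esterase of stellate cells, ranged from 7.54 to 8.58 at 497.3 mg/kg and from 8.06 to 8.63 at 994.6 mg/kg. Replicate 3 of 248.6 mg/kg had the lowest value of its dose in 9 of 9 macrophage and 6 of 7 endothelial markers, and replicate 3 of 497.3 mg/kg in 9 of 9 and 6 of 7. Replicate 3 of 994.6 mg/kg had the lowest value of its dose in 6 of 7 endothelial and 7 of 10 mesenchymal markers.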
